A study of Saccharomyces cerevisiae with 24 samples.

Results

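The iron uptake regulon of budding yeast was followed as 10 genes in every condition of an RNA-seq series on the SNF1 kinase. The 10 genes were picked by ORF name out of 6692 ORFs in the count table, and all 10 had enough reads to be among the 6616 genes tested. They are *FET3* (YMR058W), *FTR1* (YER145C), *FIT1* (YDR534C), *FIT2* (YOR382W), *FIT3* (YOR383C), *ARN1* (YHL040C), *ARN2* (YHL047C), *SIT1* (YEL065W), *FRE1* (YLR214W) and *AFT1* (YGL071W). Poly-A RNA had been sequenced from 3 haploid strains of the BY4741/BY4742 background: WT (JS1256), *snf1*∆ (JS1394, carrying *snf1*∆*::kanMX4*), and the *snf1* suppressor JS1416. JS1416 is 1 isolate that arose from JS1394 in an aging culture, so it also lacks *SNF1*, and it carries *cyc8-G337S*, a missense allele of a subunit of the Cyc8-Tup1 co-repressor. Each strain was sampled at log phase, 24 hr and 48 hr of growth in glucose medium, with 3 libraries per group except for JS1416 at log (1 library) and at 24 hr (2 libraries). The log sample is labelled 5 hr in YPD, while the study's methods give 6 hr in SC medium.

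Iron reaches the yeast cytosol by a reductive and a siderophore route. In the reductive route, ferric reductases such as Fre1 reduce iron at the cell surface, and the multicopper oxidase Fet3 and the permease Ftr1 then carry it in together as the high-affinity uptake complex. In the siderophore route, the cell wall mannoproteins Fit1, Fit2 and Fit3 help to retain iron bound to siderophores, and the transporters Arn1, Arn2 and Sit1 take it up. Aft1 is the activator that turns these genes on when iron is scarce. Snf1 is the yeast AMPK, which becomes active as glucose runs out, when cells move from fermentation to respiration and need more iron for mitochondrial enzymes.

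Library totals ranged from 747098 to 29070805 reads counted over ORFs, and the lowest was JS1416 replicate 3 at 48 hr. *SNF1* itself read 46.2 to 71.7 CPM (reads scaled to library size with TMM factors) in the WT libraries and 0.182 to 4.08 CPM in the libraries of both deleted strains. The 5 **a**-cell markers summed to 711 to 4980 CPM per library against 33.3 to 135 CPM for the 4 α-cell markers. At 48 hr, 2 libraries stood with the other strain rather than with their own. Over 6616 genes, *snf1*∆ replicate 3 correlated with JS1416 replicates 2 and 3 at 0.984 and 0.939, above its 0.905 and 0.901 with *snf1*∆ replicates 1 and 2. JS1416 replicate 1 correlated with *snf1*∆ replicates 1 and 2 at 0.984 and 0.980, above its 0.928 and 0.884 with JS1416 replicates 2 and 3. Since both strains lack *SNF1*, its counts cannot tell them apart. The libraries were kept under their labels, and counts of called genes are given both with all 24 libraries and without these 2, which also enter the estimate of the spread for every other comparison. These 2 were picked by their counts, so results without them are not independent of that choice.

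Aft1 and its relative Aft2 bind the core sequence CACCC, and TGCACCC is a longer form that contains the core. Searched on both strands in the 500 bases before the start codon, the longer form was found upstream of 8 of the 10 genes, compared with 140 of 6000 yeast promoters (2.33%). The core alone was found upstream of 9 of 10, compared with 2007 of 6000 (33.5%). In the window from 250 bases before to 50 after the start codon, the longer form was in 5 of 10 genes against 78 of 6001 promoters (1.3%), and the core was in 7 of 10 against 1200 (20%). *FRE1* held only the core, 221 bases before its start codon, and *AFT1* held neither form in either window. The site nearest to the start codon of each of the 8 genes is given with its flanks, to show what these promoters share. They were read from the RefSeq R64 genome (sacCer3) on the gene's strand, and capitals mark the motif or its reverse complement.

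*FET3*, 251 bases before the start codon, chrXIII:388563-388585, plus strand: ttcaaaagTGCACCCatttgcag
*FTR1*, 175 bases before, chrV:461901-461923, minus strand: tagatgaaTGCACCCgatttcta
*FIT1*, 182 bases before, chrIV:1505068-1505090, minus strand: ctaggaaaGGGTGCAaaaaaatg
*FIT2*, 131 bases before, chrXV:1059392-1059414, plus strand: atctaactGGGTGCAgtataatt
*FIT3*, 184 bases before, chrXV:1061225-1061247, minus strand: ctaggaaaGGGTGCAaaaaaatg
*ARN1*, 260 bases before, chrVIII:21217-21239, minus strand: tatcaaaaTGCACCCataaaagc
*ARN2*, 447 bases before, chrVIII:10646-10668, minus strand: cagaaaatGGGTGCAgttcttag
*SIT1*, 188 bases before, chrV:27461-27483, plus strand: acatttgaGGGTGCAatctggtt

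The *FIT1* and *FIT3* sites lie in a run of 25 identical bases (ttctaggaaaGGGTGCAaaaaaatg), although the genes are on chromosomes IV and XV. *FIT2* and *FIT3* are convergent neighbors on chromosome XV, with 448 bases between their coding ends. *FIT2* was the only gene of the 10 with 4 matches to the longer form in 500 bases, at 331, 266, 249 and 131 bases before its start codon. The promoters of *FIT2* and *FIT3* are printed from 250 bases before to 50 after the start codon, since these genes gave the largest changes of the 10. Capitals mark each match to the longer form or the core.

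*FIT2* promoter, chrXV:1059281-1059580, plus strand: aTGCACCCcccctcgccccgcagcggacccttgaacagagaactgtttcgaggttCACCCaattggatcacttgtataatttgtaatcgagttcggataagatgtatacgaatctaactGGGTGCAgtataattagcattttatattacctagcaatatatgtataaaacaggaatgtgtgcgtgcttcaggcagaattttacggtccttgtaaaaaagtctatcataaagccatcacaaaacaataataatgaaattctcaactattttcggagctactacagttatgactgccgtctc
*FIT3* promoter, chrXV:1061006-1061305, minus strand: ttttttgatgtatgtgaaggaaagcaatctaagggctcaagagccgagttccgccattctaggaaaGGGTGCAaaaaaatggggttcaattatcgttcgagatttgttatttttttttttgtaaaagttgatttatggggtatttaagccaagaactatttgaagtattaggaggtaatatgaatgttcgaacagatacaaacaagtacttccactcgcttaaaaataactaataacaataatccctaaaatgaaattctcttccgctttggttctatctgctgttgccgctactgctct

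**Figure D1:**
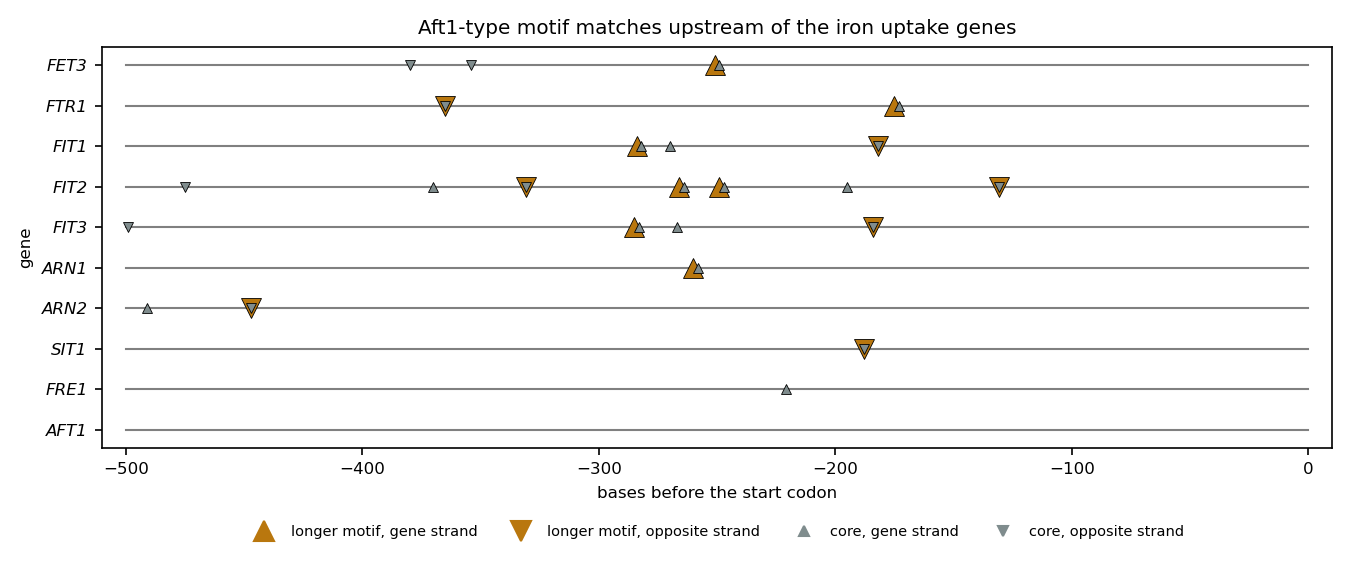
Matches to the longer and the core form of the Aft1 motif in the 500 bases before the start codon of each gene. Large triangles are the longer form and small ones the core, pointing up for the gene's strand and down for the opposite strand. *FIT2* holds 4 of the longer form, *FRE1* only the core and *AFT1* none.

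The growth response was considered first, as the change from log phase to 24 hr. In WT cells, 7 of the 10 genes rose and none fell, in a comparison where 79.7% of all genes tested were called at an adjusted p under 0.05. In *snf1*∆ cells, 9 of the 10 rose and none fell, against 67.0% of all genes. Without the 2 libraries that stand apart at 48 hr, 8 rose and 1 fell in WT (84.9% of genes called), and 9 rose and 1 fell in *snf1*∆ (75.8%). The median log2 fold change of the 10 genes was 1.82 in WT and 2.51 in *snf1*∆, compared with 0.10 and 0.09 over all genes tested. RNA was taken from whole cultures, so that a change in the share of cells expressing a gene and a change in RNA per cell cannot be told apart.

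The cell wall genes *FIT2* and *FIT3* gave the largest responses. *FIT2* had a low CPM in log phase, at 7.98, 10.2 and 7.48 in the WT libraries and 8.56, 9.23 and 8.65 in *snf1*∆. Per kilobase, its mean of 18.5 CPM in WT at log was near those of *ARN1* (19.2) and *SIT1* (18.9). By 24 hr, it had reached 7591, 7557 and 8618 CPM in WT and 2254, 2353 and 2119.9 in *snf1*∆. This was a 924-fold rise in WT (log2 fold change 9.85 ± 0.30 (SE), adjusted p = 1.18e-15) and a 254-fold rise in *snf1*∆ (7.99 ± 0.28 (SE), adjusted p = 3.35e-14), by the quasi-likelihood test of edgeR, used throughout and adjusted by the Benjamini-Hochberg method. *FIT3* started at 25.0, 22.8 and 22.1 CPM in WT and rose to 2606, 2433 and 4982, with 1 of the 3 WT libraries well above the others. In *snf1*∆, *FIT3* rose from 27.0, 27.6 and 29.4 to 1740.3, 1659 and 1509.7 CPM, and no library at 24 hr overlapped with log in either strain. The log2 fold change of *FIT3* was 7.16 ± 0.59 (SE), adjusted p = 5.65e-10 in WT and 5.87 ± 0.56 (SE), adjusted p = 1.69e-08 in *snf1*∆. The third gene of the family, *FIT1*, stayed low, with 7.88, 7.65 and 8.47 CPM at log and 10.5, 9.21 and 13.0 at 24 hr in WT. In *snf1*∆, *FIT1* read 6.65, 4.98 and 6.56 CPM at log and 1.92, 2.70 and 2.48 at 24 hr. Neither difference of *FIT1* passed the test (WT 0.46 ± 0.51 (SE), adjusted p = 0.407; *snf1*∆ -1.31 ± 0.60 (SE), adjusted p = 0.0595), although the libraries did not overlap. With the 2 libraries left out, *FIT1* was called in both strains, at 0.47 ± 0.22 in WT and -1.28 ± 0.27 in *snf1*∆ (adjusted p = 0.0471 and 0.000119), and a fit with the replicate number as a block called the fall in *snf1*∆ as well (adjusted p = 0.0401). Of the 75-base stretches in *FIT1*, 5.95% occur more than once in the genome, so that part of its count could be shared between repeats, while the other 9 genes had no such stretch.

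The siderophore transporters moved in the same direction in both strains. *ARN1* rose from 38.9, 31.2 and 38.4 CPM to 277, 281 and 339 in WT, a change of 3.05 ± 0.40 (SE), adjusted p = 6.79e-07 on the log2 scale. In *snf1*∆, it rose from 45.4, 40.3 and 42.8 to 673, 632 and 655 CPM (3.93 ± 0.42 (SE), adjusted p = 7.76e-08). *ARN2* went from 45.3, 44.1 and 37.8 to 153, 165 and 212 CPM in WT and from 52.0, 49.1 and 53.7 to 260.2, 246 and 256 in *snf1*∆. Its log2 fold changes were 2.06 ± 0.19 (SE), adjusted p = 2.89e-09 and 2.30 ± 0.19 (SE), adjusted p = 2.48e-09. *SIT1*, which encodes a ferrioxamine transporter, rose from 41.1, 36.3 and 29.5 to 127, 142 and 221 CPM in WT (2.20 ± 0.67 (SE), adjusted p = 0.0055). It rose from 22.7, 18.6 and 20.7 to 107, 107 and 116 CPM in *snf1*∆ (2.42 ± 0.68 (SE), adjusted p = 0.004).

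The response from log to 24 hr was larger in *snf1*∆ than in WT for *FET3*, *FTR1* and *FRE1*, the reductive pathway genes among the 10. *FET3* increased from 219, 204 and 222 CPM to 636, 659 and 622 in WT, which is 2.97-fold (1.57 ± 0.34 (SE), adjusted p = 0.0003). In *snf1*∆ it went from 97.2, 81.6 and 83.1 CPM to 1073, 914 and 761, which is 10.5-fold (3.39 ± 0.37 (SE), adjusted p = 1.05e-07). *FTR1*, whose product works only in complex with Fet3, did not follow it in WT, where it read 136, 115 and 106 CPM at log and 93.9, 76.4 and 64.1 at 24 hr (-0.61 ± 0.53 (SE), adjusted p = 0.297). In *snf1*∆, *FTR1* rose from 68.1, 62.4 and 60.3 to 421, 391 and 344 CPM (2.60 ± 0.56 (SE), adjusted p = 0.000368). After leaving out both libraries, *FTR1* was called lower at 24 hr in WT at the same log2 fold change of -0.61 (adjusted p = 0.00499). Per kilobase of coding sequence, the CPM of *FET3* was 1.03 to 1.32 times that of *FTR1* in the WT libraries at log and 4.31 to 6.17 times at 24 hr. In *snf1*∆ the same ratio was 0.832 to 0.907 at log and 1.41 to 1.62 at 24 hr. The reductase gene *FRE1*, which also responds to copper through the activator Mac1, read 63.2, 46.4 and 26.7 CPM at log and 37.4, 35.3 and 39.1 at 24 hr in WT, with overlapping libraries (-0.28 ± 0.26 (SE), adjusted p = 0.323). In *snf1*∆, *FRE1* rose from 41.6, 32.6 and 41.6 to 146, 194 and 249.6 CPM (2.35 ± 0.26 (SE), adjusted p = 1.71e-07).

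The gene for the activator changed little. *AFT1* read 30.2, 25.8 and 31.5 CPM at log and 38.0, 41.6 and 41.2 at 24 hr in WT. In *snf1*∆, it read 32.1, 25.1 and 31.3 CPM at log and 38.7, 42.9 and 35.9 at 24 hr. The increases of 0.47 ± 0.17 (SE), adjusted p = 0.0178 in WT and 0.41 ± 0.17 (SE), adjusted p = 0.0388 in *snf1*∆ were both called, but the WT value was -0.04 with library size alone as the scaling, and neither call held under all settings. The WT value was not called after leaving out WT log replicate 2 (0.38, adjusted p = 0.079) or with upper-quartile factors (0.33, adjusted p = 0.115). The *snf1*∆ value was not called with DESeq2 (0.33, adjusted p = 0.11) or after leaving out any of 5 single libraries: *snf1*∆ log replicate 2 (adjusted p = 0.171) or 3 (0.0503), *snf1*∆ 24 hr replicate 1 (0.0683) or 2 (0.133), or JS1416 48 hr replicate 3 (0.0561). Aft1 is known to be controlled at the level of its location in the cell, which these counts do not measure.

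**Figure D2:**
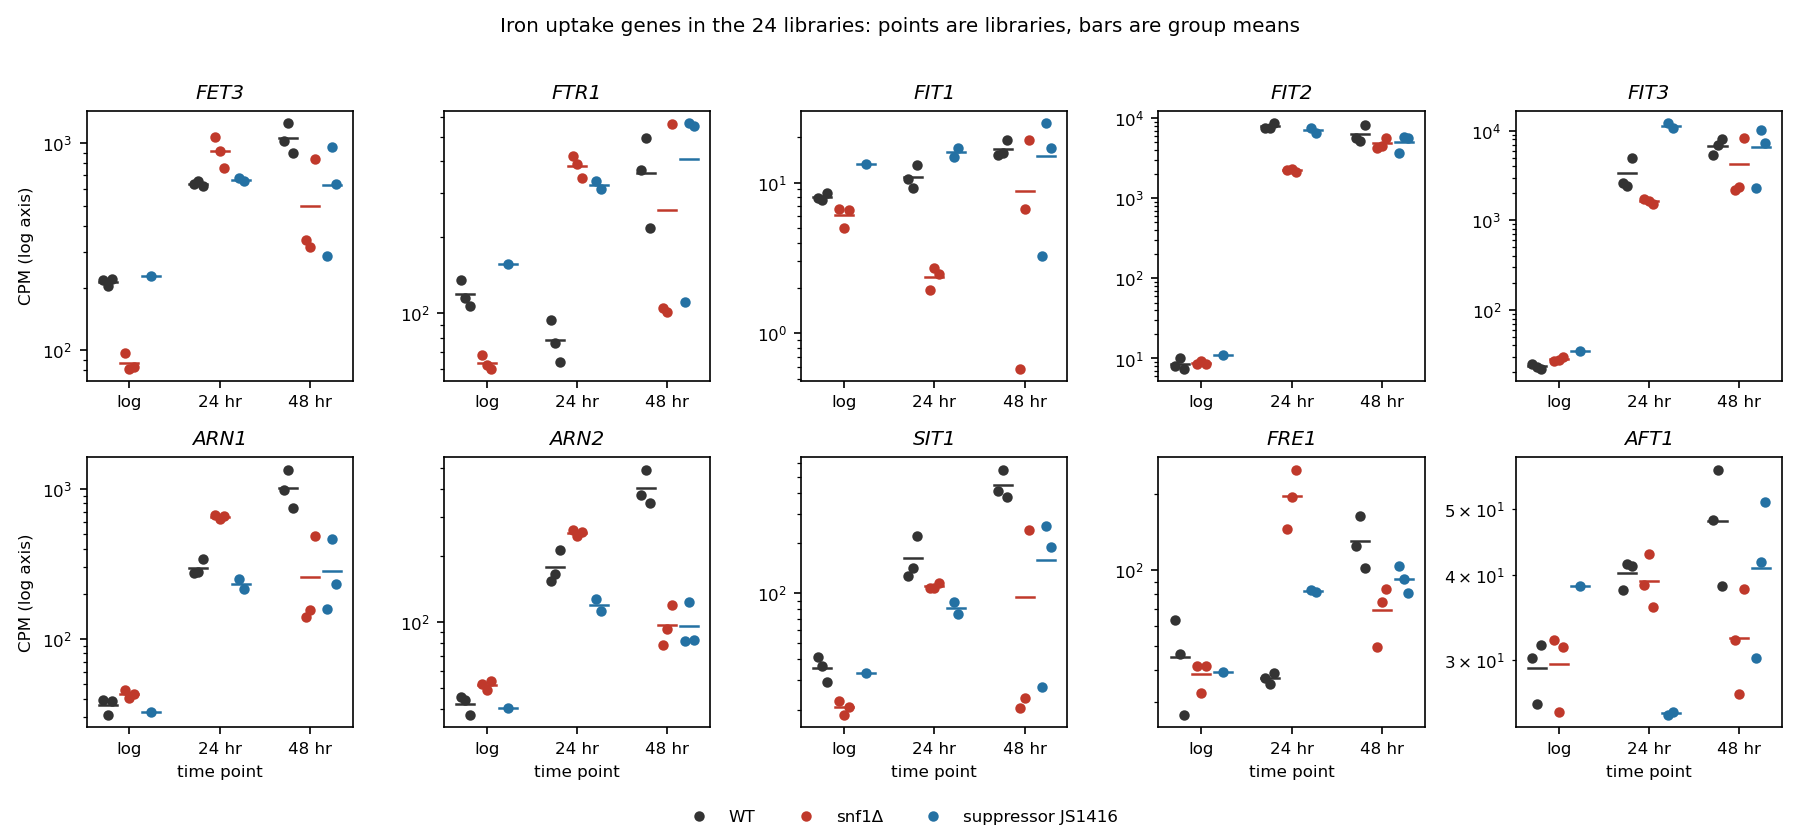
CPM of each of the 10 genes in the 24 libraries on a log axis, by time point. Points are libraries (WT black, *snf1*∆ red, JS1416 blue) and bars are group means. *FIT2* and *FIT3* lie far higher at 24 hr than at log in every strain, and the *snf1*∆ and JS1416 libraries split at 48 hr.

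The single JS1416 library at log allowed values but no test. *FIT2* was at 11.2 CPM and *FIT3* at 35.0, low as in the other strains. *FET3* read 227 CPM, against 219, 204 and 222 in WT and 97.2, 81.6 and 83.1 in *snf1*∆. *FTR1* read 156 CPM, above the libraries of both other strains. The mean at 24 hr was 636-fold higher than the log library for *FIT2* and 325-fold for *FIT3*. *ARN1*, *ARN2*, *SIT1*, *FET3*, *FTR1* and *FRE1* were 2.06-fold to 7.17-fold higher than at log by the same measure, and *FIT1* was 1.19-fold higher. *AFT1* went the other way, with a log2 ratio of -0.62.

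Strain differences were compared next, starting with log phase, when glucose is plentiful and Snf1 is mostly inactive. With all 24 libraries, none of the 10 genes was called between *snf1*∆ and WT by edgeR, while 2.12% of all genes were called (140, and 687 at an unadjusted p under 0.05). Of the 10, 1 had an unadjusted p under 0.05, which was *FET3*, and DESeq2 called 1 of the 10 and 213 genes. *FET3* came closest, with all 3 *snf1*∆ libraries below all 3 WT libraries (-1.30 ± 0.34 (SE), adjusted p = 0.0508). Without the 2 libraries, 3 of the 10 were called, all lower in *snf1*∆, against 9.12% of all genes. These were *FET3* at -1.30 ± 0.15 (adjusted p = 1.04e-06), *FTR1* at -0.90 ± 0.19 (adjusted p = 0.0021) and *SIT1* at -0.80 ± 0.18 (adjusted p = 0.00462). *FET3* was also called when any 1 of 5 libraries at 48 hr was left out (*snf1*∆ replicate 1, 2 or 3, or JS1416 replicate 1 or 2). The other 7 genes differed by log2 fold changes between -0.42 (*FIT1*) and 0.28 (*ARN2*). For the pairs of WT and *snf1*∆ log libraries with the same number, which deviated together, a fit with the replicate number as a block also called none of the 10 genes.

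At 24 hr, *FIT1* and *FIT2* were lower in *snf1*∆ than in WT, while *FTR1*, *FRE1*, *ARN1* and *ARN2* were higher. Of the 10 genes, 4 were called higher and 2 lower, a share near the 64.0% of all genes, of which 2229 were higher and 2005 lower. With the 2 libraries left out, 5 were higher and 4 lower (73.4% of genes called). The 2 lower genes were *FIT2*, which fell 3.53-fold from a mean of 7922 CPM to 2242 (-1.82 ± 0.21 (SE), adjusted p = 2.61e-07), and *FIT1*, which fell 4.55-fold from 10.9 to 2.37 CPM (-2.19 ± 0.62 (SE), adjusted p = 0.0041). *FIT3* was also lower in all 3 *snf1*∆ libraries than in any WT library, but missed the threshold (-1.03 ± 0.45 (SE), adjusted p = 0.0535). It was called without the 2 libraries at -1.03 ± 0.20 (adjusted p = 6.12e-05).

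Among the higher genes, *FRE1* and *FTR1* changed most. *FRE1* had a mean of 196 CPM in *snf1*∆ and 37.3 in WT, a 5.27-fold difference (2.40 ± 0.27 (SE), adjusted p = 1.78e-07). *FTR1* had a mean of 385 CPM in *snf1*∆ and 78.1 in WT, a 4.94-fold difference (2.30 ± 0.55 (SE), adjusted p = 0.00113). For both genes, the lowest *snf1*∆ library was above the highest WT library. The siderophore transporter *ARN1* was 2.18-fold higher (1.13 ± 0.38 (SE), adjusted p = 0.0127). *ARN2* was 1.44-fold higher (0.52 ± 0.18 (SE), adjusted p = 0.0165), and its call was lost without WT 24 hr replicate 1 (0.43, adjusted p = 0.0783) or replicate 2 (0.47, adjusted p = 0.0602). *FET3* was not called at 0.52 ± 0.34 (SE), adjusted p = 0.183, nor was *SIT1* at -0.57 ± 0.65 (SE), adjusted p = 0.451. Both were called without the 2 libraries, *FET3* higher (adjusted p = 0.00329) and *SIT1* lower (adjusted p = 0.00425). *AFT1* differed by only -0.04 ± 0.17, and its 3 *snf1*∆ libraries lay on both sides of the WT values.

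The change between log and 24 hr was then compared between the strains in the same model. The difference of responses was called for 4 of the 10 genes, 3 with a larger rise in *snf1*∆ and 1 with a smaller one, against 54.9% of all genes. For *FTR1*, the response in *snf1*∆ exceeded that in WT by 3.21 ± 0.76 (SE), adjusted p = 0.00142 on the log2 scale. For *FRE1* and *FET3*, it exceeded WT by 2.63 ± 0.37 (SE), adjusted p = 5.53e-06 and by 1.82 ± 0.48 (SE), adjusted p = 0.00314, respectively. For *FIT2*, it fell short of WT by a log2 difference of -1.86 ± 0.30 (SE), adjusted p = 3.05e-05. After leaving out both libraries, 7 of the 10 were called, 4 larger and 3 smaller (66.7% of genes), with *ARN1* added at 0.88 ± 0.27 and *FIT1* and *FIT3* at -1.75 ± 0.35 and -1.29 ± 0.29. Leaving out *snf1*∆ 48 hr replicate 3 by itself also gave 7, and the replicate block gave 5 with *FIT1* added (adjusted p = 0.0484). Calls over all genes ran from 3211 to 3996 as single libraries were left out.

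**Figure D3:**
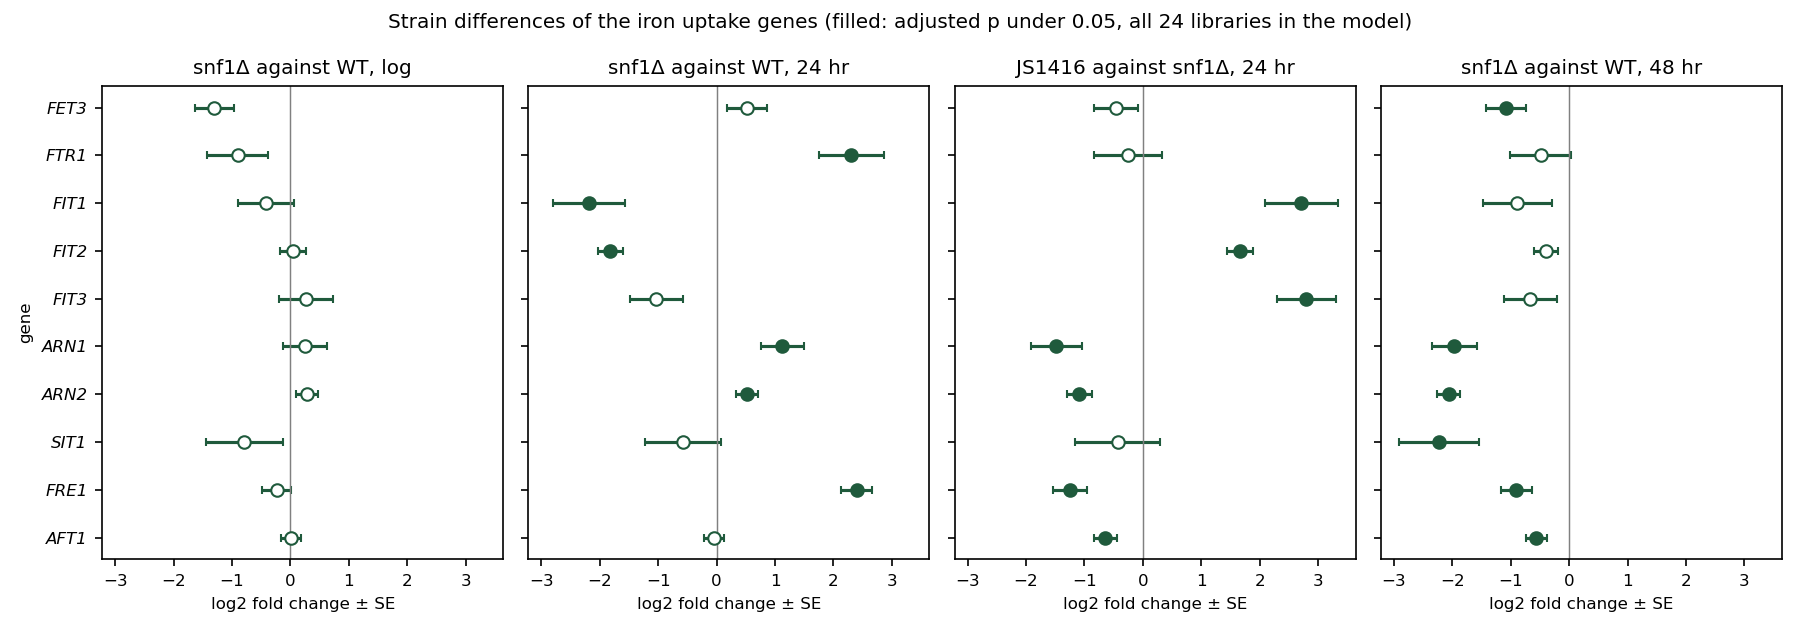
Log2 fold change ± SE of each gene in 4 strain comparisons, from the model of all 24 libraries, with filled points for an adjusted p under 0.05. At 24 hr, *FIT2* and *FIT1* are left of 0 in *snf1*∆ against WT and right of 0 in JS1416 against *snf1*∆, while *FRE1*, *ARN1* and *ARN2* are on the opposite sides.

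The suppressor was compared with its *snf1*∆ parent at 24 hr to ask which of these genes the *cyc8-G337S* isolate expressed differently. All 3 *FIT* genes were higher in JS1416, and *ARN1*, *ARN2*, *FRE1* and *AFT1* were lower. That made 3 higher and 4 lower of 10, against 47.5% of all genes called. Without the 2 libraries, 3 were higher and 5 lower (62.2%), with *FET3* added at -0.45 ± 0.17. *FIT3* reached 12042 and 10684 CPM in the JS1416 libraries, compared with 1740.3, 1659 and 1509.7 in *snf1*∆, and rose 6.94-fold (2.80 ± 0.51 (SE), adjusted p = 0.000151). *FIT2* was at 7643 and 6566 CPM and rose 3.17-fold (1.66 ± 0.23 (SE), adjusted p = 6.06e-06). *FIT1* was at 14.8 and 17.0 CPM and rose 6.54-fold, with low counts in *snf1*∆ (2.71 ± 0.62 (SE), adjusted p = 0.00136). JS1416 and *snf1*∆ libraries did not overlap for any of the 10 genes. The share of all genes without overlap was not counted, so this adds no evidence of a difference for the 3 that were not called.

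*ARN1*, *ARN2*, *FRE1* and *AFT1* were the genes called lower in the suppressor. *ARN1* read 251 and 215 CPM, and its fall of -1.49 ± 0.44 (SE), adjusted p = 0.00849 was not called without JS1416 24 hr replicate 2 (-1.38, adjusted p = 0.0757). *ARN2* read 127 and 112 CPM (-1.09 ± 0.21 (SE), adjusted p = 0.000268). *FRE1* read 83.3 and 82.0 CPM, a value between the *snf1*∆ and WT libraries (-1.25 ± 0.29 (SE), adjusted p = 0.00161). *AFT1* was lower in both JS1416 libraries, at 24.9 and 25.1 CPM, than in any other library at 24 hr (-0.65 ± 0.20 (SE), adjusted p = 0.0112). With only 1 JS1416 library in the group, *AFT1* lost its call at -0.64 without replicate 1 and at -0.65 without replicate 2 (adjusted p = 0.0744 and 0.0581). *FTR1*, at 334 and 311 CPM, was not called (-0.26 ± 0.59 (SE), adjusted p = 0.748), and neither were *FET3* and *SIT1* (-0.46 ± 0.38 and -0.43 ± 0.73). The TMM factors at 24 hr were 0.639 and 0.647 in the JS1416 libraries and 1.109, 1.077 and 1.199 in the *snf1*∆ libraries. With library size alone as the scaling, *FTR1*, *FET3* and *SIT1* would lie further below *snf1*∆, so no closeness to the *snf1*∆ level is read from these values.

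Against WT at 24 hr, JS1416 differed in both directions. *FIT3*, *FTR1* and *FRE1* were higher than in WT, and *ARN2* and *AFT1* were lower, which is 5 of 10 against 43.0% of all genes. With the 2 libraries left out, 3 were higher and 3 lower (57.2%), with *SIT1* added at -1.0 ± 0.20. *FIT2*, the most abundant of the 10 per kilobase in WT at 24 hr, did not differ detectably between JS1416 and WT (-0.16 ± 0.23 (SE), adjusted p = 0.609). *FIT3* was 3.40-fold above WT (1.77 ± 0.50 (SE), adjusted p = 0.00699), *FTR1* was 4.14-fold above (2.05 ± 0.59 (SE), adjusted p = 0.00788) and *FRE1* was 2.22-fold above (1.15 ± 0.29 (SE), adjusted p = 0.00293). *AFT1* was 1.61-fold below (-0.69 ± 0.20 (SE), adjusted p = 0.00838) and *ARN2* was 1.48-fold below (-0.57 ± 0.21 (SE), adjusted p = 0.0318). Leaving out JS1416 24 hr replicate 1 left 3 called, without *ARN2* (-0.66, adjusted p = 0.0793) and *AFT1* (-0.68, adjusted p = 0.0633). *ARN2* also lost its call without JS1416 24 hr replicate 2 (adjusted p = 0.191) or WT 24 hr replicate 3 (adjusted p = 0.144). With library size alone as the scaling, *FIT3* and *FRE1* stayed above WT but were not called (adjusted p = 0.053 and 0.0626).

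The make-up of the regulon as a whole shifted with strain at 24 hr. Summed over the 10 genes, WT libraries held 11399.7 to 15152 CPM, *snf1*∆ libraries 6050.1 to 6714 and JS1416 libraries 18746 to 21286. *FIT2* and *FIT3* made up 87.6% to 89.8% of that sum in WT, 59.5% to 61.3% in *snf1*∆ and 92.0% to 92.5% in JS1416, compared with 5.37% to 10.5% in the 7 log libraries. Per kilobase, the CPM of *FIT3* was 0.242 to 0.434 times that of *FIT2* in WT at 24 hr, 0.53 to 0.58 times in *snf1*∆ and 1.18 to 1.22 times in JS1416. The ranges of the share and of this ratio do not overlap between the 3 strains, and neither depends on the scaling of a library. The sums do depend on it. Their TMM factors were 0.639 and 0.647 in the JS1416 libraries and 0.824 to 0.872 in the WT libraries at 24 hr. With library size alone as the scaling, the sums of WT and JS1416 overlap, and only those of *snf1*∆ stay apart, below both.

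The 48 hr samples were dominated by the split between libraries. In WT, 4 of 10 genes were higher at 48 hr than at 24 hr and none was lower, against 39.3% of all genes. *FTR1* went to 370.2, 496 and 217 CPM (2.21 ± 0.55 (SE), adjusted p = 0.00367) and *FRE1* to 124, 164 and 102 CPM (1.80 ± 0.27 (SE), adjusted p = 3.52e-05). *ARN1* went to 978, 1344 and 742 CPM (1.77 ± 0.38 (SE), adjusted p = 0.00119) and *ARN2* to 376, 491 and 347 CPM (1.19 ± 0.18 (SE), adjusted p = 5.23e-05). *FET3*, *FIT1*, *FIT3* and *SIT1* were also higher in all 3 WT libraries at 48 hr than at 24 hr. The share of all genes without overlap was not counted, so this adds no evidence of a rise. The same genes did not pass the test with all libraries and did so without the 2, when 8 of 10 were higher (55.1% of genes called). Leaving out either of the 2 by itself gave 7. Over single libraries left out, 1949 to 3091 of all genes were called. The replicate block called *FIT3* at 1.06 (adjusted p = 0.0493). *FIT2* did not pass the test, with 5647, 5276 and 8274 CPM at 48 hr (-0.31 ± 0.20 (SE), adjusted p = 0.241).

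At 48 hr, *snf1*∆ replicates 1 and 2 and JS1416 replicate 1 read low for most of the regulon, while *snf1*∆ replicate 3 and JS1416 replicates 2 and 3 read high. *SIT1* showed this most clearly, with 20.4, 23.3 and 239 CPM in *snf1*∆ replicates 1, 2 and 3 and 27.2, 254 and 190.4 CPM in those of JS1416, compared with 411, 550.4 and 378 in WT. *FTR1* read 105, 101 and 563 CPM in *snf1*∆ and 111, 566 and 555 in JS1416. *FET3* read 341, 317 and 841 CPM in *snf1*∆ and 286, 964 and 636 in JS1416. For *FIT3*, the values were 2199, 2359 and 8329 CPM in *snf1*∆ and 2275, 10096 and 7286 in JS1416. In these 4 genes, the 3 low libraries lay together across the strain labels, and so did the 3 high libraries. The 3 low libraries were also all below the 3 high ones in *FIT1*, *FIT2*, *ARN1* and *AFT1*. This did not hold for *ARN2* and *FRE1*. The share of all genes that separated in this way was not counted, so the separation is not read as particular to the iron genes. *AFT1* read 32.1, 26.7 and 38.2 CPM in *snf1*∆ and 30.1, 41.8 and 51.2 in JS1416. *FIT2* was less divided, with 4253, 4563 and 5739 CPM in *snf1*∆ and 3661, 5903 and 5638 in JS1416. *ARN1* read 140.0, 156 and 485 CPM in *snf1*∆ and 159, 464 and 231 in JS1416, below every WT library in all 6. *ARN2*, at 78.1, 92.7 and 119 and 81.5, 123 and 82.7 CPM, was also below WT in all 6. *FIT1* ran from 0.583 CPM, which was 1 read in *snf1*∆ replicate 1, to 24.7 CPM over the 6 libraries, and *FRE1* ran from 49.6 to 104 CPM. The cause of the split was not tested.

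**Figure D4:**
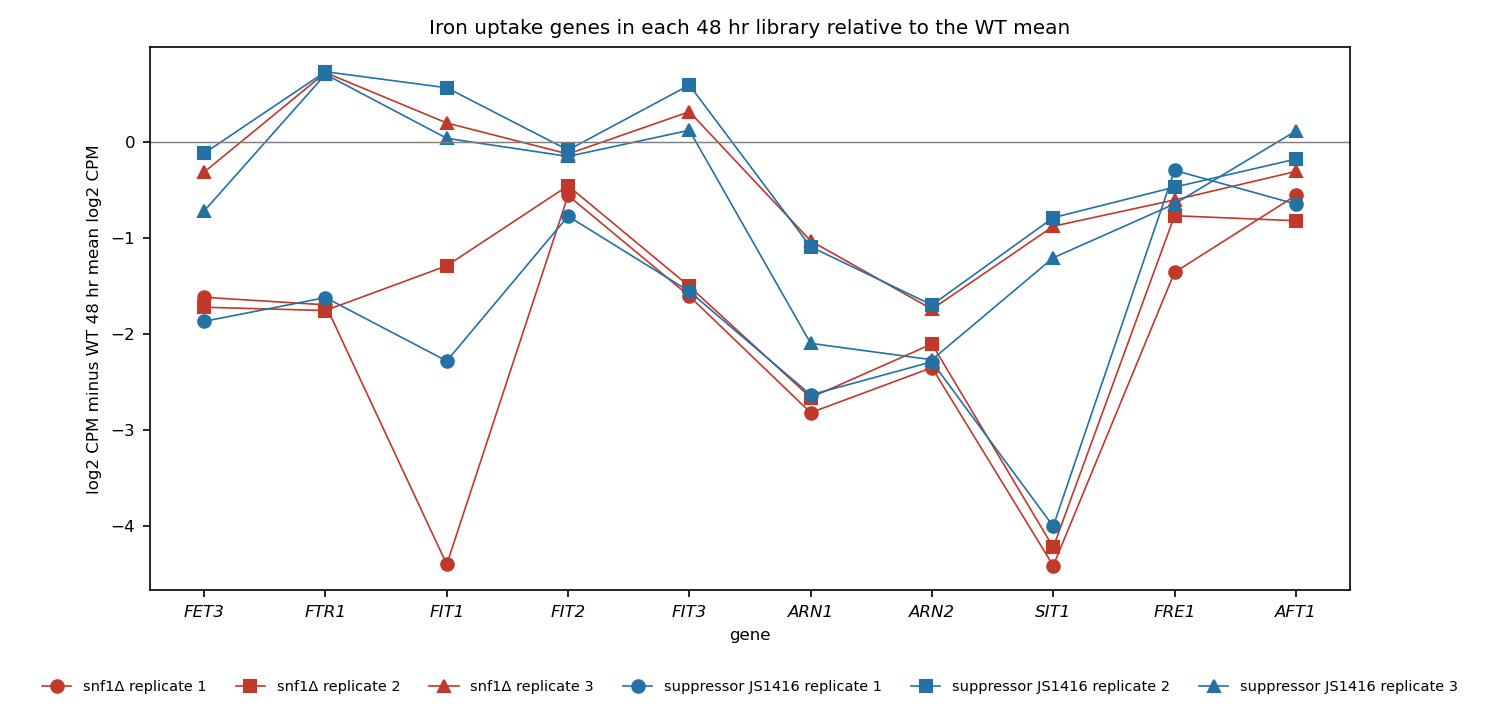
Log2 CPM of each gene in the 6 libraries of *snf1*∆ (red) and JS1416 (blue) at 48 hr, minus the WT mean at 48 hr, with a marker shape for each replicate. *snf1*∆ replicate 3 lies with JS1416 replicates 2 and 3, and JS1416 replicate 1 lies with *snf1*∆ replicates 1 and 2, in *FET3*, *FTR1*, *FIT3* and *SIT1*. The same sets of libraries do not overlap in *FIT1*, *FIT2*, *ARN1* and *AFT1*, but do in *ARN2* and *FRE1*.

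As labelled, 6 of 10 genes were lower in *snf1*∆ than in WT at 48 hr and none was higher, against 35.8% of all genes. After leaving out both libraries, all 10 were lower (51.4% of genes called), with the largest difference in *SIT1* at -4.35 ± 0.27 and the smallest in *FIT2* at -0.54 ± 0.17. The *snf1*∆ libraries then left, replicates 1 and 2, read low for most of the regulon, so these differences are not independent of that choice. *ARN1* and *ARN2* were called either way, at -1.97 ± 0.39 (SE), adjusted p = 0.000561 and -2.06 ± 0.19 (SE), adjusted p = 1.48e-07 with all libraries, and at -2.79 and -2.25 without the 2. *SIT1* (-2.23 ± 0.68 (SE), adjusted p = 0.0153), *FET3* (-1.08 ± 0.34 (SE), adjusted p = 0.0179), *FRE1* (-0.91 ± 0.26 (SE), adjusted p = 0.0116) and *AFT1* (-0.56 ± 0.19 (SE), adjusted p = 0.0252) depended on single libraries. The count was 2 without *snf1*∆ replicate 1, and 3 without *snf1*∆ replicate 2 or without WT replicate 2. Calls over all genes ran from 1652 to 2964 as single libraries were left out. *AFT1* also lost its call without WT 48 hr replicate 1 (adjusted p = 0.0536). *ARN1*, *ARN2* and *FRE1*, which were called higher in *snf1*∆ than in WT at 24 hr, were thus called lower at 48 hr.

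Within *snf1*∆, the step from 24 hr to 48 hr gave 3 genes higher and 4 lower, against 41.3% of all genes, and 1 higher and 6 lower without the 2 libraries (53.9%). *FRE1* (-1.50 ± 0.27 (SE), adjusted p = 0.000177), *ARN2* (-1.39 ± 0.19 (SE), adjusted p = 9.41e-06) and *ARN1* (-1.33 ± 0.38 (SE), adjusted p = 0.00867) fell, and *FIT2* rose (1.11 ± 0.21 (SE), adjusted p = 0.000276). *ARN1* was not called without *snf1*∆ 48 hr replicate 1 or 2 (-1.02 and -1.07, adjusted p = 0.0525 and 0.0517). The fall of *FET3* (-0.87 ± 0.34 (SE), adjusted p = 0.0445) overlapped between times and lost its call when any of 17 single libraries was left out. Without the 2 libraries, it was -1.48 ± 0.18 (SE), adjusted p = 2.09e-07, and *FTR1* and *SIT1* fell by -1.90 and -2.34 on the log2 scale. The rises of *FIT3* (1.39 ± 0.46 (SE), adjusted p = 0.0199) and *FIT1* (1.91 ± 0.73 (SE), adjusted p = 0.0417) rested on *snf1*∆ 48 hr replicate 3, without which they were 0.48 (adjusted p = 0.317) and 0.52 (adjusted p = 0.69). They were also not called without *snf1*∆ 24 hr replicate 2 or 3, and *FIT1* not without *snf1*∆ 24 hr replicate 1 or *snf1*∆ 48 hr replicate 2. The count of 7 fell to 4 without *snf1*∆ 24 hr replicate 2 and to 4 without *snf1*∆ 48 hr replicate 2. Calls over all genes ran from 2178 to 3063 as single libraries were left out.

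In JS1416, only *AFT1* was called between 24 hr and 48 hr with all libraries (0.64 ± 0.20 (SE), adjusted p = 0.0315), against 18.7% of all genes. It lost this call without JS1416 24 hr replicate 1 (adjusted p = 0.184) or 2 (0.132), or without JS1416 48 hr replicate 2 (0.093) or 3 (0.0626). With the 2 libraries left out, 4 genes were higher and none lower (35.1% of genes called): *SIT1* at 1.48 ± 0.22, *AFT1* at 0.81 ± 0.18, *FTR1* at 0.80 ± 0.23 and *ARN1* at 0.62 ± 0.23. Against WT at 48 hr, *ARN1* (-1.83 ± 0.38 (SE), adjusted p = 0.00114) and *ARN2* (-2.06 ± 0.19 (SE), adjusted p = 1.78e-07) were lower in JS1416, 2 of 10 against 31.0% of all genes. This count was 4 without *snf1*∆ 48 hr replicate 3 and 5 without JS1416 48 hr replicate 2. Calls over all genes ran from 1458 to 2422 as single libraries were left out. After leaving out both libraries, 1 was higher (*FTR1*, 0.64 ± 0.21) and 3 were lower (42.3%), with *SIT1* added at -0.97 ± 0.20.

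Between JS1416 and *snf1*∆ at 48 hr, edgeR called none of the 10 genes and 0% of all genes, with 0 of the 10 and 275 of all genes at an unadjusted p under 0.05. DESeq2 also called 0. The largest differences of the 10 were in *FIT1* (0.73 ± 0.61) and *SIT1* (0.71 ± 0.67). Without the 2 libraries, 7 of the 10 were higher in JS1416 and none lower, against 45.8% of all genes. *SIT1* then differed by 3.38 ± 0.28 (SE), adjusted p = 8.27e-10, *FIT1* by 2.76 ± 0.42 (SE), adjusted p = 6.97e-06 and *FTR1* by 2.45 ± 0.25 (SE), adjusted p = 2.52e-08. *FIT3*, *FET3*, *ARN1* and *AFT1* were the other 4, at 1.93 ± 0.25, 1.29 ± 0.19, 1.28 ± 0.25 and 0.57 ± 0.22. Leaving out *snf1*∆ replicate 3 by itself gave 3 of 10 and 364 genes, and leaving out JS1416 replicate 1 by itself gave 1 of 10 and 1155 genes. The 2 libraries were set aside because they resembled the other strain, so these values describe the remaining libraries and are not independent of that choice.

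Over the 9 groups, each gene had its own order of levels. Per kilobase, *FIT2* had a mean CPM of 18.5 to 24.2 in the log groups and 4853 to 17147 at 24 hr and 48 hr. *FIT3* had 37.9 to 56.9 at log and 2661 to 18477 later. *AFT1* stayed between 12.1 and 23.2 in all 9 groups, and *FIT1* between 1.49 and 10.5. In order of mean CPM, *FET3* was lowest in *snf1*∆ at log and highest in WT at 48 hr, 12.1-fold apart, and 4 of the 8 pairs of neighboring groups overlapped. *FIT2* was lowest in WT at log and highest in WT at 24 hr, 928-fold apart, with 5 of 8 neighboring pairs overlapping. *FRE1* was lowest in WT and highest in *snf1*∆, both at 24 hr, 5.27-fold apart, and all 8 neighboring pairs overlapped. *AFT1* had the narrowest range, 1.92-fold between JS1416 at 24 hr and WT at 48 hr.

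Across the 9 group means of log2 CPM, the correlation between members was highest for *FIT2* and *FIT3* (0.988) and for *ARN1* and *ARN2* (0.968). *FET3* correlated with *ARN1* at 0.912, and *FTR1* with *FRE1* at 0.892. *FIT1* stood apart, at -0.27 with *FRE1* and -0.06 with *ARN1*. Outside the 10 genes, the patterns most like *FET3* among 5740 genes with a mean log2 CPM of at least 3 were *MVB12* (0.955), *YOL050C* (0.945) and *HXT15* (0.934), and those most like *FIT2* were *RRT1* (0.998), *MOH1* (0.997) and *YER152C* (0.996). These 9 points share strains and time points.

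The regulon was set beside 39 other genes of iron handling in 9 lists. Of these, 23 rose and 9 fell from log to 24 hr in WT, and 22 rose and 9 fell in *snf1*∆. These are 82.1% called in WT, against 79.7% of all genes, and 79.5% in *snf1*∆, against 67.0%. Without the 2 libraries, 37 of the 39 were called in WT (84.9% of all genes) and 36 in *snf1*∆ (75.8%). The median log2 fold changes of the 39 were 1.10 and 0.82. All 5 ferric reductase genes in the lists, *FRE2* to *FRE6*, rose in WT and 4 of 5 in *snf1*∆. Of all 6616 genes tested, 2725 rose in WT and 2412 in *snf1*∆. *TIS11*, which encodes an mRNA-binding protein that lowers transcripts of iron-using enzymes, rose 19.9-fold in WT (4.32 ± 0.21 (SE), adjusted p = 1.6e-13) and 26.0-fold in *snf1*∆ (4.70 ± 0.21 (SE), adjusted p = 8.92e-13). *RLI1*, an iron-sulfur protein needed for ribosome recycling, fell 22.3-fold in WT (-4.48 ± 0.19 (SE), adjusted p = 3.73e-14) and 3.17-fold in *snf1*∆ (-1.66 ± 0.17 (SE), adjusted p = 3.52e-08). *LEU1*, an iron-sulfur enzyme of leucine synthesis, fell by -2.50 in WT and -1.56 in *snf1*∆. *ACO1*, the aconitase gene, fell by -1.44 in *snf1*∆ (adjusted p = 0.00483). *SDH2*, the iron-sulfur subunit of succinate dehydrogenase, rose 14.1-fold in WT (3.82 ± 0.26 (SE), adjusted p = 2.3e-11). The list of iron-using enzymes had 2 genes higher and 3 lower of 7 in WT, and 2 higher and 5 lower in *snf1*∆. The scaffold gene *ISU1* rose by 3.85 and its paralog *ISU2* fell by -1.74 in WT. The high affinity biotin transporter gene *VHT1* and the low affinity metal transporter gene *FET4* rose in *snf1*∆, by 3.58 and 2.74.

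Between *snf1*∆ and WT at 24 hr, 10 of the 39 were higher and 15 lower in *snf1*∆, or 64.1% called against 64.0% of all genes. Without the 2 libraries, 29 of the 39 were called, against 73.4% of all genes. *VHT1* was 6.75-fold higher (2.75 ± 0.46 (SE), adjusted p = 3.18e-05), and *RLI1* was 5.46-fold higher (2.45 ± 0.18 (SE), adjusted p = 7.1e-10). *ATX1*, the copper chaperone on the way to Fet3, was 4.27-fold higher (2.10 ± 0.30 (SE), adjusted p = 4.32e-06). *SDH2* was 8.57-fold lower (-3.10 ± 0.25 (SE), adjusted p = 1.81e-09), and *ACO1* was 4.59-fold lower (-2.20 ± 0.43 (SE), adjusted p = 0.000154). *ISU1* was 4.08-fold lower (-2.03 ± 0.20 (SE), adjusted p = 2.37e-08). The list of intracellular iron transport and recycling had 1 gene higher and 4 lower of 5, and the list of iron-using enzymes had 2 higher and 4 lower of 7.

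Between JS1416 and *snf1*∆ at 24 hr, 14 of the 39 were higher and 8 lower in JS1416, or 56.4% called against 47.5% of all genes. Without the 2 libraries, 28 of the 39 were called, against 62.2% of all genes. *CCP1*, the mitochondrial cytochrome c peroxidase, was 6.50-fold higher (2.70 ± 0.22 (SE), adjusted p = 5.1e-09). *SDH2* and *ACO1* were 4.56-fold and 4.22-fold higher (2.19 ± 0.26 (SE), adjusted p = 9.63e-07; 2.08 ± 0.46 (SE), adjusted p = 0.000892). The heme oxygenase gene *HMX1*, an Aft1 target that recycles heme iron, was 4.49-fold lower (-2.17 ± 0.22 (SE), adjusted p = 1.41e-07). *LEU1* was 4.04-fold lower (-2.02 ± 0.60 (SE), adjusted p = 0.00964), as was *GRX3*, a glutaredoxin that relays iron status to Aft1, at 3.07-fold (-1.62 ± 0.32 (SE), adjusted p = 0.00034). At log, none of the 39 was called between *snf1*∆ and WT by edgeR, against 2.12% of all genes. At an unadjusted p under 0.05 there were 4 of 39, against 687 of 6616 genes, and without the 2 libraries 9 of 39, against 1517 of 6615, again with none of the 39 called.

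**Figure D5:**
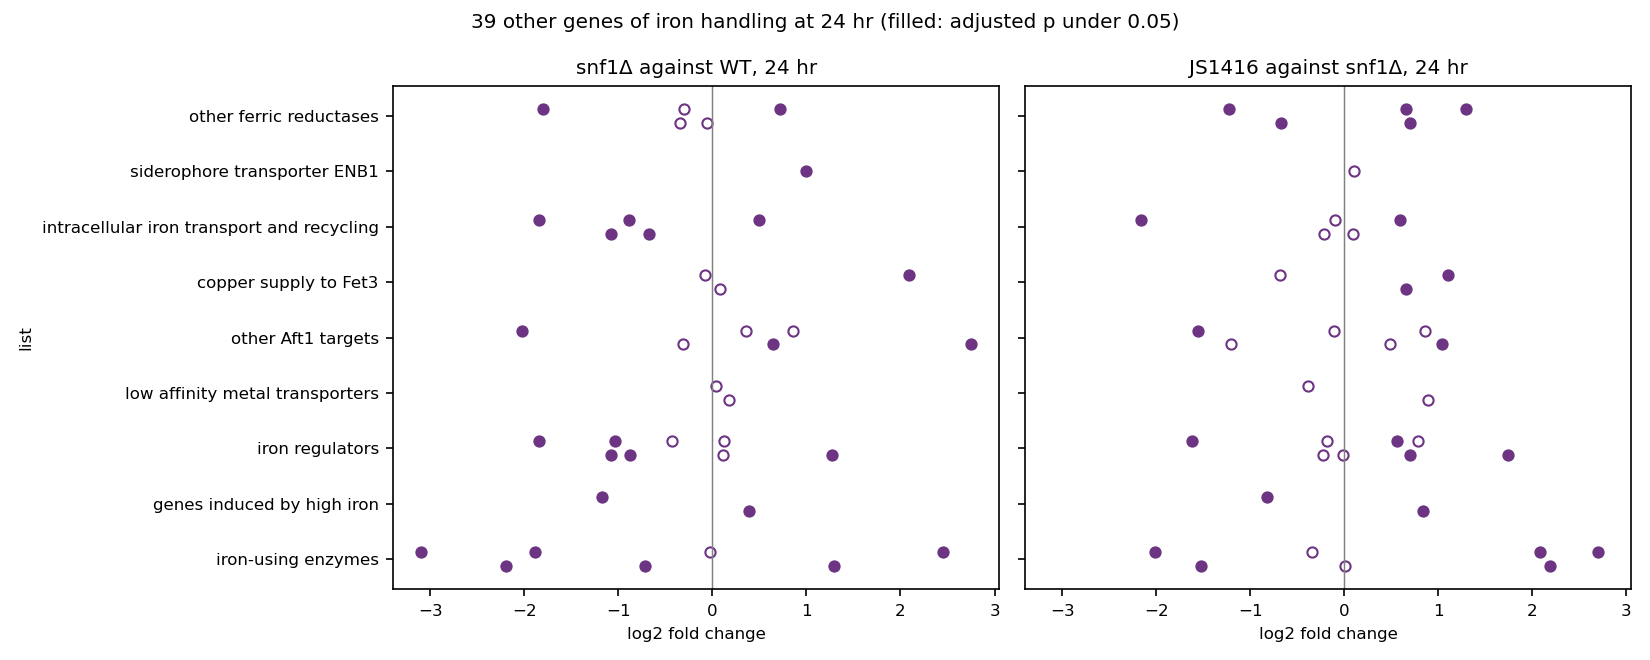
Log2 fold changes of 39 other genes of iron handling at 24 hr, by list, for *snf1*∆ against WT (left) and JS1416 against *snf1*∆ (right), with filled points for an adjusted p under 0.05. Each list with at least 5 genes has members on both sides of 0 in both comparisons.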

How the data were processed

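Per the labels and the study's methods, directional poly-A libraries were sequenced, and the authors used bowtie2 to map 75-base reads to sacCer3 and bedtools multicov to count reads over ORFs. The deposited values are raw read counts per ORF for 24 libraries, without normalization. The strand option is not given in the sources used here, so that antisense reads cannot be told apart from sense reads, although none of the 10 genes overlaps another annotated gene. The 10 members, the lists of other iron genes and the tests were chosen with earlier results of these data known. Other iron genes were counted in full and, in 4 comparisons (24 hr against log in WT and *snf1*∆, and *snf1*∆ against WT and JS1416 against *snf1*∆ at 24 hr), named where they were the 3 most changed in a direction among those called, with no overlap between libraries and log2 CPM averaging 3 or more.

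With edgeR 4.0.16 (R 4.3.3), ORFs were filtered by filterByExpr (6616 of 6692 were kept) and scaled by TMM, and 1 quasi-likelihood model was fitted to the 9 groups. P-values were adjusted by Benjamini-Hochberg over all genes tested, with calls at an adjusted p under 0.05. CPM was computed with the TMM factors, and a prior count of 2 was added for log2 CPM. The test was run on simulated data first. Of 6692 ORFs, 6008 were matched to the R64 annotation. Totals of 747098 to 29070805 reads per library set the precision. The labels name replicates, and the study's methods describe triplicate cultures. Replicate numbers paired the samples in 1 of 21 pairs of groups with 3 libraries each, WT and *snf1*∆ at log, where the deviations of same-numbered libraries correlated at 0.327, 0.514 and 0.128. Alternatives were RLE, upper-quartile and no scaling factors, other filters, DESeq2 1.42.0, robust dispersion, a stricter threshold, a replicate block, fits to only those groups being compared, and leaving out libraries. Promoters were searched with Python 3.11.15.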

Additional observations from a re-analysis of the deposited data

Results flagged for a closer look

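The response from log to 24 hr differed between *snf1*∆ and WT by a test of the difference itself in 4 of the 10 genes, against 54.9% of all genes. The difference was 1.82 ± 0.48 for *FET3* (adjusted p = 0.00314), 3.21 ± 0.76 for *FTR1* (adjusted p = 0.00142) and 2.63 ± 0.37 for *FRE1* (adjusted p = 5.53e-06), with the larger rise in *snf1*∆ (log2 scale, SE, edgeR's quasi-likelihood test). For *FIT2* it was -1.86 ± 0.30 (adjusted p = 3.05e-05), with the smaller rise in *snf1*∆.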

How the results depend on the processing

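In what follows, the 2 libraries are *snf1*∆ 48 hr replicate 3 and JS1416 48 hr replicate 1. Of 130 member values (10 genes in 13 comparisons), 58 were called with all libraries, and 1 of these changed sign under any setting tried. This was *AFT1* in WT at 24 hr against log, at -0.041 with library size alone. With library size alone, the median over all genes moved by -0.51 (WT 24 hr against log), 0.48 (WT 48 hr against 24 hr), -0.16 (*snf1*∆ 24 hr against log), -0.45 (*snf1*∆ 48 hr against 24 hr), 0.48 (JS1416 48 hr against 24 hr), 0.42 and -0.51 (*snf1*∆ against WT at 24 hr and 48 hr), -0.82 (JS1416 against *snf1*∆ at 24 hr), -0.39 and -0.40 (JS1416 against WT at 24 hr and 48 hr), 0.12 (JS1416 against *snf1*∆ at 48 hr) and 0.35 (difference of responses) on the log2 scale, and under the other settings by 0.17 at most. In the same order up to the difference of responses, without *snf1*∆ 24 hr against log and JS1416 against *snf1*∆ at 48 hr, the share of called genes that were higher went from 51.7% to 38.5%, 49.7% to 92.1%, 48.0% to 18.9%, 53.4% to 96.2%, 52.6% to 72.1%, 50.4% to 14.4%, 42.4% to 10.2%, 47.1% to 21.3%, 51.0% to 15.8% and 53.3% to 69.2%. With upper-quartile factors it was 63.1% for WT and 70.3% for JS1416 at 48 hr against 24 hr, with 10 counts required in every library it was 61.7% for WT at 48 hr against 24 hr and 40.4% for *snf1*∆ against WT at 48 hr, and for *snf1*∆ against WT at log it went from 80% to 58.8% with only the groups compared, 61.2% without the 2 libraries and 66.0% without all 48 hr libraries.

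Uncalled values also changed sign. With library size alone these were *FIT1* in WT at 24 hr (-0.046), *FIT2* in WT at 48 hr against 24 hr (0.16), *FET3*, *FIT1*, *FIT2* and *ARN2* in JS1416 at 48 hr against 24 hr (0.47, 0.46, 0.058 and 0.21), *AFT1* between *snf1*∆ and WT at 24 hr (0.37) and in the difference of responses (0.29), and *FET3* at 24 hr and *FTR1* at 48 hr between JS1416 and WT (-0.33 and -0.15). With upper-quartile factors they were *FET3* and *FIT1* in JS1416 at 48 hr (0.057 and 0.070) and *AFT1* between *snf1*∆ and WT at 24 hr (0.058) and in the difference of responses (0.047). After leaving both libraries out they were *FET3* and *FIT1* in JS1416 at 48 hr against 24 hr (0.27 and 0.56) and *FIT1* and *FIT3* against WT (0.47 and 0.35). *AFT1* between *snf1*∆ and WT at log was -0.0066 with 10 counts required, and *ARN2* between JS1416 and *snf1*∆ at 48 hr was -0.0047 with only the groups compared. Leaving out single libraries gave ranges across 0 for *FRE1* in WT at 24 hr against log (-0.55 to 0.026), *SIT1* in *snf1*∆ at 48 hr against 24 hr (-2.33 to 0.27), *FIT1*, *FET3* and *ARN1* in JS1416 at 48 hr against 24 hr (-1.63 to 0.55, -0.55 to 0.27 and -0.27 to 0.60), *FIT2*, *FRE1* and *AFT1* between *snf1*∆ and WT at log (-0.043 to 0.19, -0.51 to 0.074 and -0.070 to 0.12), *AFT1* at 24 hr (-0.11 to 0.020) and in the difference of responses (-0.16 to 0.026), *FIT2*, *ARN1*, *ARN2*, *FET3* and *FIT1* between JS1416 and *snf1*∆ at 48 hr (-0.061 to 0.25, -0.43 to 0.96, -0.24 to 0.19, -0.13 to 0.94 and -0.83 to 2.12), and *FTR1*, *FIT3* and *FIT1* between JS1416 and WT at 48 hr (-0.16 to 0.64, -0.51 to 0.35 and -1.72 to 0.46).

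The number of the 10 genes called depended on the setting as follows, and the cause was not tested except where fewer samples or a stricter threshold make it. WT at 48 hr against 24 hr went from 4 to 8 with library size alone, with only the groups compared and without the 2 libraries, and ran from 4 to 7 over single libraries left out. *snf1*∆ at 48 hr against 24 hr went from 7 to 4 at an adjusted p under 0.01 and to 3 with only the groups compared (4 to 7). JS1416 at 48 hr against 24 hr went from 1 to 0 under the same 2 settings and to 4 without the 2 libraries (0 to 1). *snf1*∆ against WT at log went from 0 to 1 with DESeq2 and with robust dispersion, to 5 with only the groups compared and to 3 without the 2 libraries or all 48 hr libraries (0 to 1). *snf1*∆ against WT at 48 hr went from 6 to 2 at an adjusted p under 0.01 and with only the groups compared, and to 10 without the 2 libraries (2 to 9). JS1416 against *snf1*∆ at 48 hr went from 0 to 7 without the 2 libraries (0 to 3). JS1416 against WT at 24 hr went from 5 to 3 with library size alone and 8 with only the groups compared (3 to 5), and at 48 hr from 2 to 6 with library size alone and 4 without the 2 libraries (2 to 5). The difference of responses went from 4 to 7 with only the groups compared, without the 2 libraries and without all 48 hr libraries (4 to 7). Over all genes, calls went from 2603 to 1627 (WT 48 hr against 24 hr), 2735 to 1815 (*snf1*∆ 48 hr against 24 hr), 1237 to 543 (JS1416 48 hr against 24 hr), 140 to 85 (*snf1*∆ against WT at log), 2369 to 1476 (at 48 hr) and 2052 to 1240 (JS1416 against WT at 48 hr) at an adjusted p under 0.01. With only the groups compared, they were 1714 (*snf1*∆ 48 hr against 24 hr), 0 (JS1416 48 hr against 24 hr), 1052 (*snf1*∆ against WT at log), 1274 (at 48 hr) and 559 (JS1416 against WT at 48 hr). With library size alone, they were 3032 for JS1416 at 48 hr against 24 hr and 4888, from 3144, for JS1416 against *snf1*∆ at 24 hr. For *snf1*∆ against WT at log they were 213 with DESeq2, 603 without the 2 libraries and 823 without all 48 hr libraries. For JS1416 at 48 hr against 24 hr they were 2325, and for JS1416 against *snf1*∆ at 48 hr 3027 instead of 0, without the 2 libraries. Leaving out single libraries gave 364 to 1654 (JS1416 48 hr against 24 hr), 83 to 209 (*snf1*∆ against WT at log) and 0 to 1155 (JS1416 against *snf1*∆ at 48 hr).

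With the replicate number as a block, the pairing of WT and *snf1*∆ at log gave 0 of 10 genes and 142 genes in all, compared with 0 and 140. Elsewhere the samples share only a number, and the block changed 3 member calls, *FIT3* in WT at 48 hr (1.06), *FIT1* in *snf1*∆ at 24 hr (-1.41) and *FIT1* in the difference of responses (-1.83), and no other call. Depth limited *FIT1* most, which had 1 to 36 reads in the *snf1*∆ libraries at 24 hr and 48 hr.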
